A study of Mus musculus with 10 samples.

Results

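Weaker Ldb1 peaks on mouse chromosome 8 were examined. They are the listed binding regions of the adaptor protein Ldb1 on that chromosome with a ChIP coverage below 40, where coverage is the highest pile-up of sequenced fragments within the peak. This rule took 292 peaks of the 4252 in the list, or 6.87% (95% Wilson interval 6.15 to 7.67%), and 292 of the 340 listed on chromosome 8. Of the weaker peaks as a whole there were 3729. They were set beside the 2579 weaker peaks of the 17 autosomes other than 8 and 11, called the other autosomes below. The members were chosen by chromosome and by measured ChIP coverage, and chromosome 8 was picked with its number of peaks already known, so these values are given as descriptions. All intervals cover counting error only, because peaks of one library are not replicates.

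The list came from 1 chromatin immunoprecipitation (ChIP) library made with an antibody to Ldb1 and 1 control library made without antibody. Both used Flk1-positive blast colony-forming cells sorted from day 4 embryoid bodies, the aggregates in which embryonic stem cells differentiate. The genotype of these cells is not given in the labels. RNA-seq libraries of Flk1-positive cells, 4 with an intact Ldb1 gene (Ldb1+/+, WT) and 4 lacking it (Ldb1-/-, KO), are used only at the end, and their embryoid body day is not given. No comparison between peaks has a replicate check, and the depth of the ChIP and control libraries is unknown here.

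Ldb1 does not bind DNA itself. It bridges LIM-domain and LIM-only proteins such as Lmo2, and in blood progenitors it is known in complexes with the GATA factors, Tal1 and its E-protein partners, which read GATA and E-box sequences. These complexes can bring distant enhancers and promoters together. Flk1, encoded by Kdr, is the VEGF receptor that marks mesoderm able to form blood and endothelium. A peak is a stretch where fragments from the ChIP library pile up beyond the control.

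Chromosome 8 carried more weaker peaks than any of the other autosomes. Against its 292, they had 96 to 262, with chromosome 2 the highest, and chromosome 8 stood at 1.92 times their mean number. It made up 10.2% (9.12 to 11.3%) of the weaker peaks on these 18 autosomes, while it carried 5.76% of the genes of the RNA table placed on them. Counted over the span from the first to the last listed peak, 128.1 Mb on chromosome 8, the density was 2.28 weaker peaks per Mb. The other autosomes had 0.854 to 1.68 per Mb, and chromosome 19 was the densest of them. Per 100 genes of the RNA table the values were 29.9 on chromosome 8 and 11.1 to 22.6 on the others. All 3 measures placed chromosome 8 above the 17 others, at 1.80 to 1.92 times their mean.

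Strong peaks, those with a coverage of 40 or more, were numerous on chromosome 8 to a like degree. There were 48, against 14 to 47 on the other autosomes, which is 2.05 times their mean. Chromosome 8 therefore held 6.08 weaker peaks per strong peak, inside the range of 3.70 to 10.3 on the other autosomes, where 7 lay below it and 10 above. Chromosome 11 had 840 weaker and 72 strong peaks, or 11.7 weaker peaks per strong peak. By this ratio chromosome 8 lay among the other autosomes and chromosome 11 above all of them.

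**Figure D1:**
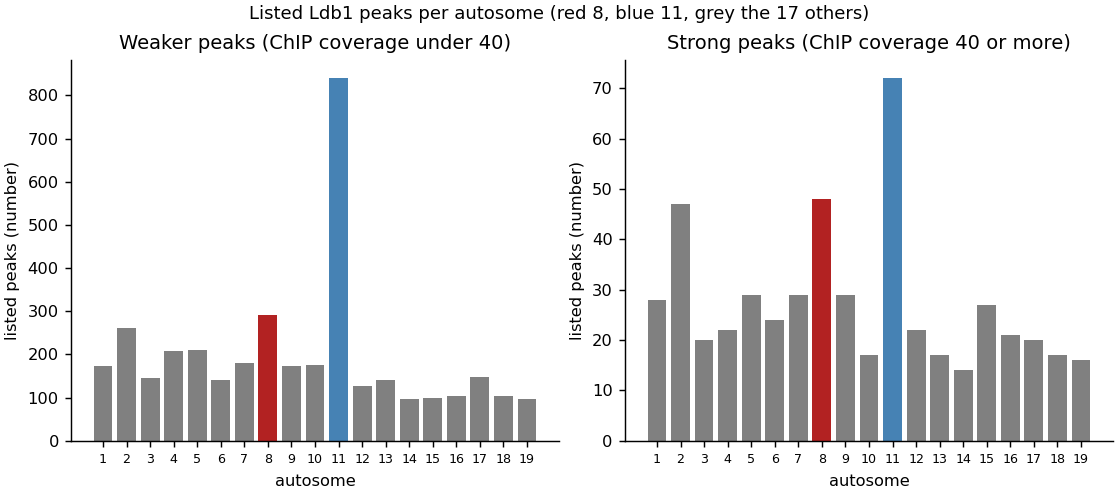
Number of listed Ldb1 peaks (y axis) on each autosome (x axis), weaker peaks on the left and strong peaks on the right, from 1 ChIP and 1 control library with no error bars. Chromosome 8 (red) has 292 weaker and 48 strong peaks, above the 17 grey autosomes in both panels, and chromosome 11 (blue) has 840 and 72.

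The surplus was spread over the coverage range. Each share below lies above the 5.76% of genes, though the interval at a coverage of 40 to 59 reaches below it. Chromosome 8 was picked with its number of peaks known, so this is a description and not a test. Chromosome 8 held 79 of 945 peaks (8.36%, 6.76 to 10.3%) at a coverage of 20 to 21 on these 18 autosomes. It held 88 of 893 (9.85%, 8.07 to 11.98%) at 22 to 24 and 88 of 641 (13.7%, 11.3 to 16.6%) at 25 to 29. The share was 37 of 392 (9.44%, 6.93 to 12.7%) at 30 to 39. Above the limit it was 19 of 244 (7.79%, 5.04 to 11.8%) at 40 to 59 and 29 of 203 (14.3%, 10.1 to 19.8%) at 60 or more. The shares did not move in one direction with coverage. Intervals of neighbouring classes overlap, while those at 20 to 21 and at 25 to 29 do not.

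Most members lay close to the lower limit of the list. No listed peak had a coverage under 20, and 51 of the 292 had exactly 20. The median was 24 (quartiles 21 and 27), against 23 (21 and 26) on the other autosomes. In all, 167 members (57.2%) lay at 20 to 24. Only 2 members reached 39, the peak at chr8:9157260-9157893, with a control coverage of 5, and the peak at chr8:120067572-120068079, with 4. Just outside, the strong peak at chr8:119609349-119609960 had a ChIP coverage of 40 and a control coverage of 16, and the next, chr8:93346187-93346900, had 42 and 4. Coordinates are of build mm9, as the list gives them, and whether starts are counted from 0 or 1 is not stated.

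Along the chromosome the weaker peaks ran from chr8:3106230-3106680 (ChIP coverage 20, control 2) to chr8:131209000-131210250 (24 and 4). They were sparse from 50 to 70 Mb and frequent beyond. In windows of 10 Mb from the start of the chromosome there were 7, 18, 27, 24 and 18 weaker peaks up to 50 Mb, followed by 4 from 50 to 60 Mb and 10 from 60 to 70 Mb. From 70 Mb on, the windows held 30, 32, 32, 27, 20 and 41, and 2 more peaks lay beyond 130 Mb. The second part of the span thus held 187 of the 292, or 64.0% (58.4 to 69.3%). On the other autosomes that percentage ranged from 34.0 to 77.0 with a median of 56.1, and 14 of the 17 lay below chromosome 8, so the lean towards the far end is within their range.

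Strong peaks of chromosome 8 were distributed more unevenly than the weaker ones. The window from 120 to 130 Mb held 20 of the 48 strong peaks beside 41 weaker ones. From 20 to 70 Mb there were 27, 24, 18, 4 and 10 weaker peaks per window but 1, 1, 1, 0 and 0 strong ones. The window from 100 to 110 Mb held 27 weaker peaks and no strong one. Only 2 members (0.685%, 0.188 to 2.46%) had a strong peak within 5 kb, against 35 of 2579 (1.36%, 0.977 to 1.88%) on the other autosomes. The median distance from a weaker peak to the nearest strong peak was 861 kb on chromosome 8 and 1167 kb on the others.

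**Figure D2:**
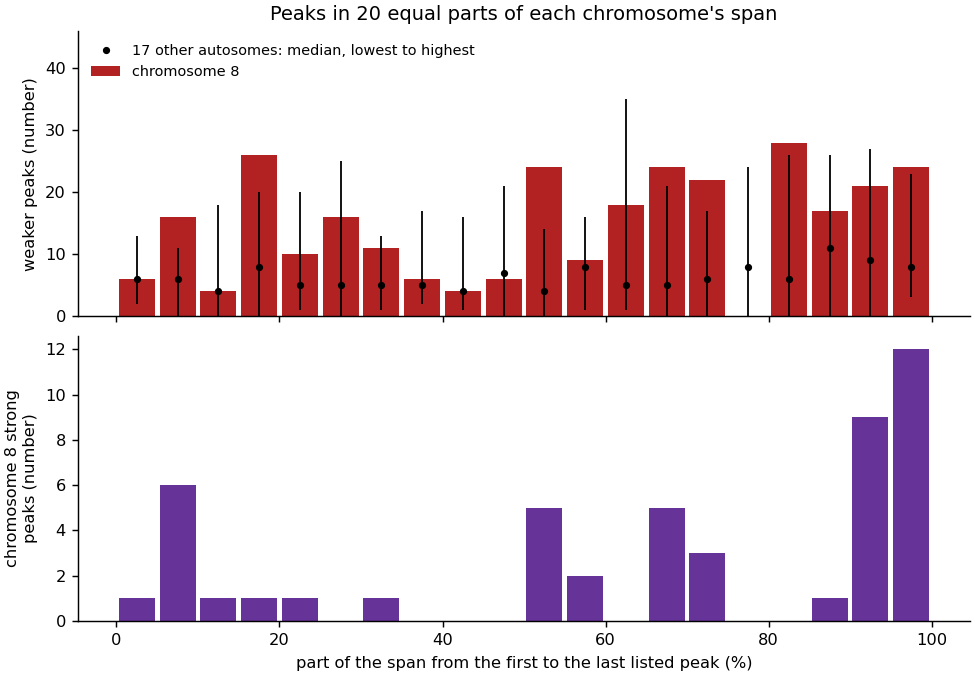
Number of peaks (y axis) in 20 equal parts of the span from the first to the last listed peak (x axis, %). Above, red bars are the weaker peaks of chromosome 8, and black points with lines are the median and the lowest to highest number on the 17 other autosomes. Below are the 48 strong peaks of chromosome 8. The part from 75 to 80% of the span has no weaker peak on chromosome 8, while the part after it has 28.

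Some stretches of 1 Mb were crowded. The windows from 35 to 36 Mb and from 108 to 109 Mb held 12 weaker peaks each, and that from 72 to 73 Mb held 11. These windows were picked after their counts were seen. Of 129 windows on chromosome 8, 25 (19.4%, 13.5 to 27.0%) held 5 or more weaker peaks, against 99 of 2152 (4.60%, 3.79 to 5.57%) on the other autosomes. A fixed count is reached more often where peaks are denser, and the density on chromosome 8 was above that of each other autosome. Empty windows made up 47 of 129 (36.4%, 28.6 to 45.0%) and 1008 of 2152 (46.8%, 44.7 to 49.0%). The fullest window outside chromosomes 8 and 11 held 18 peaks, more than any on chromosome 8. With the 3 fullest windows of every chromosome left out, chromosome 8 stood at 1.94 times the mean of the others.

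Neighbouring weaker peaks lay closer together on chromosome 8 than on each of the other autosomes. The median distance to the next weaker peak was 151.6 kb (quartiles 45.9 and 365 kb, 291 distances), against 194 to 496 kb on the 17 others and 293 kb over all their 2562 distances. Of the distances, 40.9% (35.4 to 46.6%) were under 100 kb, against 25.2% (23.5 to 26.9%) on the others. A distance over 1 Mb made up 10.3% on chromosome 8 and 17.6 to 31.3% on the others. Shorter distances follow from a larger number of peaks on a span of like length. Divided by the chromosome's own mean distance of 440.2 kb, the median was 0.34, inside the range of 0.23 to 0.44 on the others, where 6 were lower and 11 higher. On that scale chromosome 8 lay among the other autosomes.

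**Figure D3:**
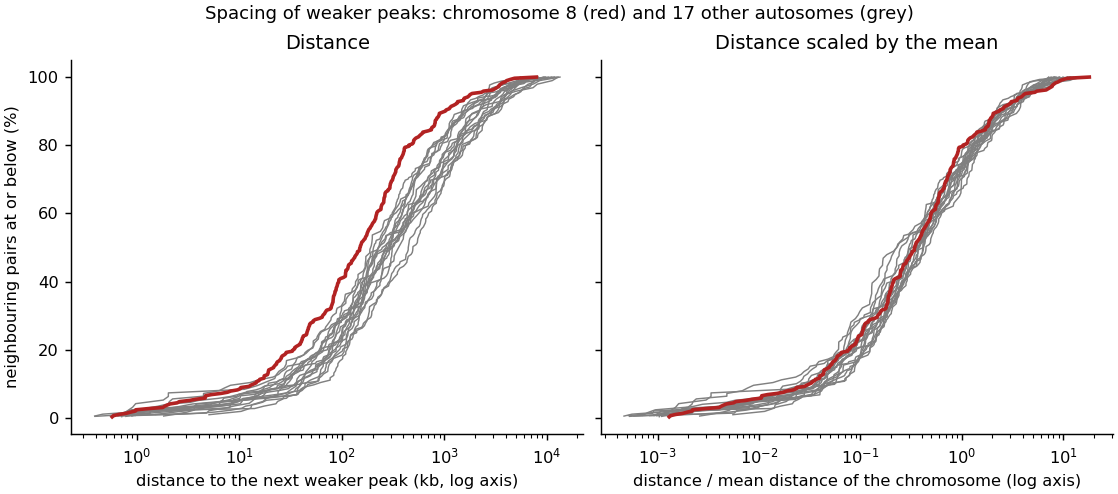
Cumulative percentage of neighbouring pairs of weaker peaks (y axis) by distance in kb (left) and by distance divided by the chromosome's mean distance (right), both on log axes, with 1 line for each chromosome. Chromosome 8 (red) lies to the left of the 17 others (grey) through most of the left panel, with a median of 151.6 kb, and among them in the right panel.

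At the short end, 19 distances (6.53%, 4.22 to 9.97%) were under 5 kb, against 85 of 2562 (3.32%, 2.69 to 4.08%) on the other autosomes. Chromosomes with larger shares than chromosome 8 numbered 2 of the 17. Such a share, too, is larger where peaks are denser. The 19 distances joined 37 members (12.7%, 9.33 to 16.98%) into 17 pairs and 1 group of 3. The group lay at chr8:35867740-35872490, inside one of the fullest 1 Mb windows. Its 3 peaks had ChIP coverages of 25, 22 and 23 and control coverages of 4, 5 and 5, and their summits, the points of highest coverage, spread over 3886 bp.

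The closest pair, chr8:33118880-33119360 and chr8:33119440-33120450, had summits 572 bp apart. Its ChIP coverages were 21 and 26 and its control coverages 8 and 7. The next were chr8:86478870-86479470 with chr8:86479539-86480400, at 589 bp, and chr8:48758630-48759560 with chr8:48759620-48760210, at 660 bp. All 6 of these peaks had control coverages of 6 to 8, above the median of 5 among the members. That did not extend to the pairs next in distance. Summits 784 bp apart had control coverages of 3 and 3, and summits 861 bp apart had 2 and 3. No 2 members overlapped.

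At the long end, the widest gap ran from chr8:98674820-98675490 to chr8:106623150-106623720. Over these 7.95 Mb the list holds no peak of either class on chromosome 8. It amounts to 18.1 times the mean distance of the chromosome, more than the largest such multiple on each of the 17 others, which ran from 7.17 to 16.1. Chromosome 11 reached 31.7, over 839 distances. Chromosome 8 had 291 distances and the 17 others 95 to 261, and the multiple was not compared at equal numbers. In Mb the gap on chromosome 8 was not unusual, since the longest gaps on the 17 others ran from 5.56 to 13.5. The next gaps were 4.86 Mb, after chr8:75877014-75877910 and with 1 strong peak inside it, and 4.43 Mb, after chr8:51189640-51190170 and with none.

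The members were somewhat wide. Their median width was 650 bp (quartiles 556 and 860 bp), against 620 bp (530 and 760 bp) on the other autosomes. None of the 17 had a higher median and chromosome 6 had the same one. The mean was 746 ± 312 bp (SD over 292 peaks), against 682 ± 249 bp over 2579, and the means of the single autosomes ran from 648 to 719 bp. The difference in means was small beside the spread among single peaks, which is not the error of a mean. It came with a longer upper tail: 45 members (15.4%, 11.7 to 19.999%) were 1000 bp or wider, against 249 (9.65%, 8.57 to 10.9%) on the others, where chromosome 17 alone had a larger share. Chromosome 11 went further, with a median of 680 bp and 23.0% (20.3 to 25.9%) at 1000 bp or more.

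Coverage and width are linked, so widths were also compared within classes of ChIP coverage. The median was 582 bp on chromosome 8 and 560 bp on the others at a coverage of 20 to 21. At 22 to 24 it was 646.5 and 617 bp, at 25 to 29 it was 733 and 660 bp, and at 30 to 39 it was 690.0 and 663 bp. Chromosome 8 was higher in all 4 classes. The SD among its single peaks was 257 to 354 bp, over 37 to 88 members per class. Whether coverage accounts for the difference in width was not tested.

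Extremes of width stood at quite different coverages. The widest member, chr8:11007430-11010040, spanned 2610 bp with a ChIP coverage of 31 and a control coverage of 2. It was followed by chr8:11634597-11636660 at 2063 bp (28 and 2) and by chr8:35869650-35871470 at 1820 bp (22 and 5), the middle peak of the group of 3. The narrowest was chr8:20032440-20032623, at 183 bp (24 and 10), ahead of chr8:91565901-91566191 at 290.0 bp (21 and 1) and chr8:87561095-87561390 at 295 bp (22 and 7). The median summit stood at 49.3% of the peak's width on chromosome 8 and on the other autosomes, close to its centre.

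Control coverage of the members was close in median and mean to that of weaker peaks elsewhere, while its distribution differed in shape. The median was 5 (quartiles 3 and 7), against 4 (3 and 7) over the other autosomes, whose medians ran from 4 to 6. The mean was 5.42 ± 3.54 (SD over 292 peaks) against 5.14 ± 3.10 over 2579. The means of the single autosomes ran from 4.49 to 5.84, and 14 of the 17 lay below chromosome 8. Values of 1 to 3 made up 29.5% of the members against 36.1% of the others. Values of 4 to 6 made up 40.1% against 33.1%, and values of 7 to 9 made up 14.04% against 21.02%. For these 3 classes the range over single autosomes was not examined. A control coverage of 0 was found at 8 members (2.74%, 1.39 to 5.31%) and at 29 peaks (1.12%, 0.784 to 1.61%) of the others, with overlapping intervals and a larger share on 3 of the 17. At the upper end, 40 members (13.7%, 10.2 to 18.1%) had a control coverage of 10 or more, against 224 (8.69%, 7.66 to 9.83%), though 2 of the 17 autosomes had a larger share.

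The list holds no adjusted p above 0.00998. A member with a high control coverage therefore needs, by construction, a ChIP coverage well above it. None with a control coverage of 10 to 12 had a ChIP coverage under 23, and none with 13 or more had one under 27. The highest control coverage was 21, at chr8:116963220-116964010, with a ChIP coverage of 37 and an adjusted p of 0.00982 in the authors' deposited table, near the largest value listed. The peaks at chr8:14072490-14072980 and chr8:108146110-108146820 followed with a control coverage of 19 each, at ChIP coverages of 35 and 38. The smallest adjusted p among the members in that table was 1.21e-08, at chr8:97508890-97509630, with a ChIP coverage of 36 and a control coverage of 1.

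Within classes of ChIP coverage the mean control coverage was on either side of that of the other autosomes. It was 3.99 against 4.02 at a ChIP coverage of 20 to 21 and 4.60 against 5.00 at 22 to 24, then 6.35 against 5.99 at 25 to 29 and 8.19 against 6.88 at 30 to 39. The SD over the 37 members of the last class was 5.44, which is a spread of single peaks and not the error of a mean. These differences were not tested. In the strong peaks of chromosome 8 the median control coverage was 13, above the range of 3 to 11 on the other autosomes. Their ChIP coverage was higher too, with a median of 62.5 against 55 over the strong peaks of the other autosomes. Control coverage of strong peaks was not compared within classes of ChIP coverage. Control coverage belongs to the same contrast as the rule, and these values are a description of listed peaks, not of the control library over the chromosome as a whole.

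**Figure D4:**
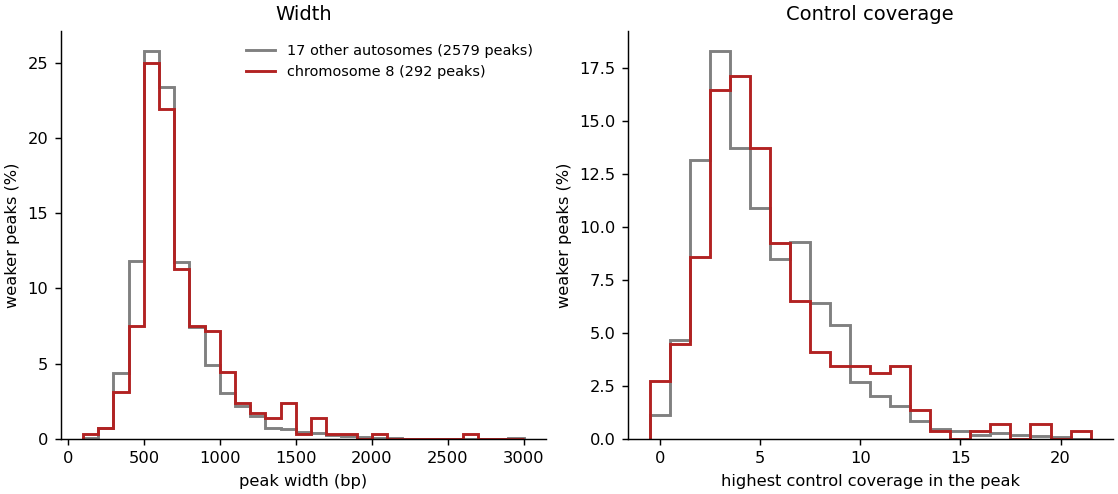
Percentage of weaker peaks (y axis) by width in bp (left, steps of 100 bp) and by highest control coverage (right, steps of 1), for the 292 peaks of chromosome 8 (red) and 2579 peaks of the 17 other autosomes (grey). The red line is higher at widths of 1000 bp or more in sum (15.4% against 9.65%) and at control coverages of 10 or more in sum (13.7% against 8.69%).

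RNA-seq gave a measure of chromosome 8 that the rule did not use. Within a genotype, the counts of libraries 1 and 2 differed close to sampling noise only, as those of libraries 3 and 4 did. The counts of each such pair were added up, which left samples A and B per genotype with 22674679 to 26775787 reads. The labels do not name separate cultures for A and B, and a p-value then reflects only the spread between them, which may be technical. Kdr, the marker of the sort, stood at 439.5 and 605 counts per 1000000 (CPM) in WT samples and 236 and 78.6 CPM in KO samples. Of 7 markers of Flk1-positive progenitors, 6 (Kdr, Etv2, Tal1, Lmo2, Gata2 and Fli1) had both KO samples below both WT samples. Of all genes, 22.4% did so. For Etv2 the margin was small, at 6.36 CPM in WT sample A against 6.31 CPM in KO sample A. In edgeR, 0 of the 7 passed an adjusted p of 0.05, where 0.185% of all 16785 genes did. The 7 summed to 602 and 825 CPM in the WT samples, against 335 and 136 CPM in the KO samples. The WT samples also stood apart from each other: the pluripotency gene Pou5f1 was at 281 CPM in A and 81.3 CPM in B, and the mesoderm gene Pdgfra at 11.99 and 53.5 CPM. Of 5 tested markers of pluripotent, endoderm and neural cells, which summed to 576 and 239.8 CPM in the WT samples and to 396 and 393 CPM in the KO samples, Sox17 alone was lower in KO without overlap. The part of these markers in the chromosome 8 values below was not tested. The level of Ldb1 was 105 and 113 CPM in WT, with KO at 96.1 and 80.1 CPM, and the labels do not say which part of the gene is deleted.

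Genes of chromosome 8 stood higher in KO than in WT as a whole. Of the reads on autosomal genes they took 5.40% (A) and 5.12% (B) in WT and 6.40% (A) and 6.36% (B) in KO, so the genotypes did not overlap. Over the 597 chromosome 8 genes with a mean above 3 on the log2 CPM scale, the median difference of KO minus WT was 0.25 log2 (quartiles 0.10 and 0.42), and 506 of them (84.8%) lay above 0. The medians of the other autosomes ran from -0.0019 to 0.067, with 54.7% of genes above 0. The 4 differences between single KO and WT samples had chromosome 8 medians of 0.21 to 0.32, larger than the -0.051 between the WT samples and the 0.059 between the KO samples. On chromosome 11 the median was -0.46, of the opposite sign.

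The shift ran along the whole chromosome. With its genes divided by order into 10 blocks of 59 or 60, the block medians lay between 0.18 and 0.33 log2. Of 170 such blocks on the other autosomes, 1 reached the lowest of these. The labels do not name separate cultures within a genotype, so the lack of Ldb1 and any other difference between the cells cannot be told apart. Whether the cells of the ChIP and control libraries share the state of either genotype was not tested.

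**Figure D5:**
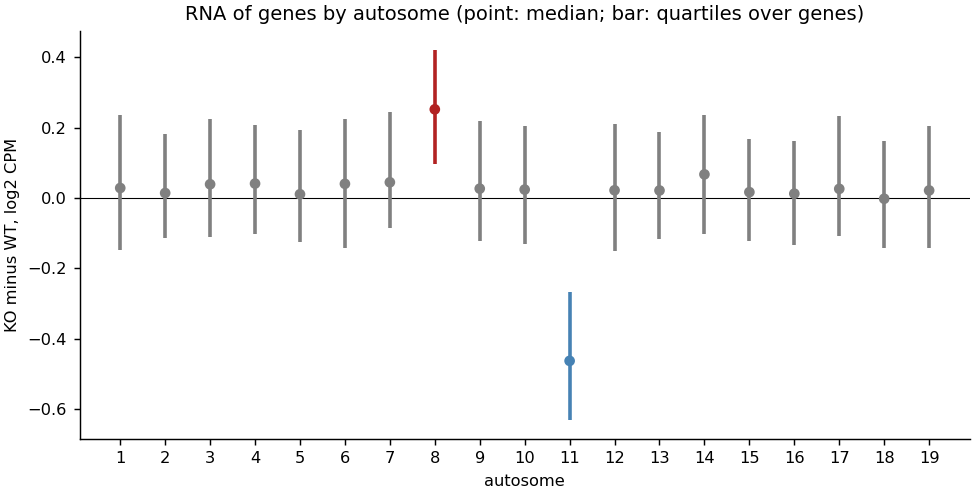
Difference of KO minus WT in log2 CPM (y axis) over genes of each autosome (x axis), from 2 summed samples per genotype. Points are medians and bars the quartiles over genes. Chromosome 8 (red) has a median of 0.25, the 17 grey autosomes lie between -0.0019 and 0.067, and chromosome 11 (blue) is at -0.46.

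Gene by gene, the chromosome 8 difference gave no call in the main test. Of 808 chromosome 8 genes tested with edgeR's quasi-likelihood test, 0 passed an adjusted p of 0.05, where 0.185% of all 16785 genes did. At an unadjusted p under 0.05, 180 were higher and 14 lower in KO, that is 22.3% and 1.73%, against 7.61% and 7.86% of all genes. DESeq2 called 78 higher and 7 lower of 775 at an adjusted p of 0.05 (10.1% and 0.903%, against 3.58% and 3.75% of all genes). These counts depended on the samples. Without WT sample A edgeR called 84 higher and 22 lower of 835 chromosome 8 genes, in a fit that called 8.93% of all genes. Without WT sample B it called 68 higher and 25 lower of 821, in a fit that called 9.73%. With KO sample A or KO sample B left out, edgeR called 0 genes on any chromosome, where 107 and 58 chromosome 8 genes were higher and 10 and 8 lower at an unadjusted p under 0.05. In each of these fits 1 genotype has a single sample, so the spread comes from the other genotype alone.

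Examples show the sizes involved. Rpl13, which encodes a ribosomal protein and is the most abundant chromosome 8 gene, had levels of 1116 and 996 CPM in the WT samples. Its KO levels were 1096 and 1367 CPM (log2 fold change of 0.22, edgeR adjusted p = 0.597), with overlapping samples. The skeletal actin gene Acta1 had WT levels of 377 and 416 CPM against KO levels of 855 and 1606 CPM (1.63, edgeR adjusted p = 0.130). The abundant pseudogenes Gm8730 and Rps6-ps2, whose reads may come from near-identical ribosomal protein genes, had log2 fold changes of -0.14 and -0.09. Hmgxb4, named after its value was seen as the chromosome 8 gene with the smallest p, had WT levels of 87.0 and 90.05 CPM against KO levels of 174 and 195 CPM (1.06, edgeR adjusted p = 0.0724).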

How the data were processed

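The members and the gene lists were chosen with earlier results of these data known. Per the file headers, the authors deposited 1 list of peaks with start, end and summit. The deposited coverage signal is, per the file headers, the highest value within the peak for ChIP and for control. The adjusted p-value of each peak is the authors' own. Build mm9 and DESeq appear in the submitters' processing notes. The sources used here do not name the peak caller, its filters, the aligner or a scaling of the control. Peaks were called on 1 library of each kind. Distances are between the listed peak positions. Shares have 95% Wilson intervals. Peaks were described with pandas 2.3.3, numpy 2.4.6 and scipy 1.17.1.

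The authors deposited raw counts for Ensembl genes, per the file headers. The 21868 genes had 11258493 to 13483294 reads per library, as summed here. They were paired with symbols (20362) and with a RefSeq table of assembly GRCm38.p6, which placed 19332 on a chromosome and gave gene order. Its coordinates were not used with the peaks. Library pairs were compared by a mean chi-square per gene, where 1 is sampling noise: 1.065 to 1.101 within the summed pairs and 12.76 to 28.47 for the others of a genotype. After filterByExpr and TMM scaling, counts were tested with edgeR 4.0.16 (robust quasi-likelihood fit, Benjamini-Hochberg adjustment). Chromosome medians were taken over log2 CPM (prior count 2). DESeq2 1.42.0 was an alternative. Scripts were tested on simulated data.

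Named peaks followed a rule: first and last, the 3 at each extreme of coverage, width, control and p, the 3 closest pairs and the 3 longest gaps, of which some are printed. Named genes were the 5 most abundant of chromosome 8, of which 1 is not reported here. Others are marked in the text. No genome of the files' build was at hand, so the peaks were not annotated with genes and no sequence is printed.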

Additional observations from a re-analysis of the deposited data

How the results depend on the processing

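Of 61 recomputed values, 52 stayed within their interval (peaks), within 1 SD of the 4 sample differences (RNA medians) or within 1.5 times (counts of calls). Some of the settings could hardly move a value. The RNA median with the replicate block equals the main value by construction. Leaving out 1 library of a summed pair removes a near repeat of the library kept. With a coverage limit of 30, chromosome 8 held 3.00 weaker peaks per strong peak, against 2.95 on the other autosomes, and with a limit of 50 it held 8.19 against 10.9. With peaks at an adjusted p under 0.001 only, it held 3.71 (others 3.68), the median spacing was 289.4 kb (others 683 kb) and the median control coverage was 3 (others 3). These settings by construction change how many peaks count as weaker. Spacing on chromosome 8 was shorter than on the others under all 4 peak settings. Its share of weaker peaks was 9.92 to 10.5% under the limits of 30 and 50, the stricter p and merging within 5 kb, and 7.87% when chromosome 11 was counted among the others. The RNA median was 0.22 to 0.29 log2 under every setting run. Settings that moved the number of called chromosome 8 genes from 0 were DESeq2 (85), no filter on low counts (5), and, chosen after seeing the data, leaving out WT sample A (106) or WT sample B (93). In the latter fits the KO samples alone give the spread, and the lone WT sample is assumed to vary like them. Over all genes, DESeq2 called 1159 and the fit without the filter called 151, against 31 in the main test. The 5 chromosome 8 genes are thus among 151 calls in that fit. For DESeq2 and the filter the cause was not tested. No value is given for peaks with a replicate block, since each library is single. With the replicate block, by sample A and B, the RNA median was 0.25 and 0 chromosome 8 genes passed edgeR, where 5 of all genes did. Deviations of same-lettered samples had a correlation of -0.077 over genes, so they were not treated as pairs.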
